A study of Mus musculus with 12 samples.

Results

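The transcripts described are those of immunoglobulin constant genes and Jchain in MC38 tumors: the heavy-chain constant genes Ighg2c, Ighg2b, Ighg1, Ighg3, Ighm and Igha, the kappa light-chain constant gene Igkc, and Jchain, which encodes the joining chain of secreted antibody polymers. They are 8 of 27457 gene rows of the count table and were taken by name. They were chosen from their levels by cluster and by strain in these same cells, so those levels are given as a description, with no test.

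A B cell makes the transcripts of its antigen receptor from 1 rearranged heavy-chain and 1 rearranged light-chain locus. Its constant gene is Ighm at first and, after class switching, a gene for IgG, IgA or IgE. Plasma cells, the end stage of the lineage, secrete antibody and carry far more of this RNA than any other cell, so that RNA set free from a few broken plasma cells can enter many droplets of a droplet-based library. Heavy-chain constant regions are also transcribed from their own promoters without a rearranged variable segment, and such a germline transcript encodes no antibody.

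Hosts were female F1 mice of C57BL/6J and 1 Collaborative Cross (CC) strain, or C57BL/6J (B6) mice, aged 8 to 12 weeks, that were injected under the skin with MC38, a colon carcinoma line of B6 origin. At a tumor size of 75 to 110 mm3 each received 200 µg of isotype control antibody (isotype) or of antibody against PD-1 (aPD1) as a single dose. Tumors were collected 48 h after the dose and, once frozen and dissociated, were sorted so that 90% of cells were CD45+ and 10% CD45-. The study classed CC001, CC002 and CC075 F1 hosts as responders (10 isotype and 10 aPD1 tumors) and CC036, CC079 and CC080 F1 hosts as non-responders (9 and 9), from tumor growth in other animals, while 6 B6 and 4 CC007 F1 tumors belong to no class. Each of 12 pooled libraries (pools) held an isotype and an aPD1 tumor of 2 host strains, told apart by hashtag antibodies, and the replicate was the tumor. Hashtags were never shared between isotype and aPD1 tumors, so hashtag and treatment cannot be told apart.

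The 48 tumors gave 93126 cells, 53 to 3082 per tumor, with a median of 3333.5 unique molecular identifiers (UMIs, each marking 1 captured transcript) per cell and 88816 to 17713491 UMIs per tumor. Of 87940 barcodes 4990 occurred in more than 1 library. One animal identifier stands on 2 tumors (CC080 isotype of pool 3 and CC080 aPD1 of pool 4). Clusters are the authors' numbers. Clusters 2, 4, 5, 9, 15, 17, 19, 21, 26 and 27 carried macrophage markers (68059 cells), clusters 1, 3, 7, 8, 10, 12, 13 and 23 T and NK cell markers (10407 cells), cluster 6 those of type 1 dendritic cells, cluster 11 those of migratory dendritic cells and cluster 18 those of plasmacytoid dendritic cells. The study itself named a B cell population, with Igkc among its markers. By the marker rule used here cluster 25 (249 cells) had 5 of 6 B cell markers, but its 10 leading genes held none of these beside the keratins Krt8, Krt18 and Krt19, which were listed as MC38 markers, and 4 variable segments, so it was left unnamed. Cluster 24, led by the NK cell receptor gene Ncr1, was not named by that rule either. It is therefore not in the class of T and NK cells, called T/NK below.

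The IgG constant genes are close copies, which bears on how far their counts can be told apart. Their first 100 bases of the first constant exon are shown because 5′ reads enter the constant region there. They lie on the minus strand of chromosome 12 (GRCm38), and each is the start of a 291-base coding exon. Capitals mark bases that differ from Ighg2c.
Ighg2c: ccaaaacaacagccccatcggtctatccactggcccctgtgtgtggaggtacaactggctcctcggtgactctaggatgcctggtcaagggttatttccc
Ighg2b: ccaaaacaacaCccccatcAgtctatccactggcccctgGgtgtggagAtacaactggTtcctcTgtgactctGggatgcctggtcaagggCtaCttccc
Ighg1: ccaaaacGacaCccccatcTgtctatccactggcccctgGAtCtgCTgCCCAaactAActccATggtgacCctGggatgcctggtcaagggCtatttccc
Ighg3: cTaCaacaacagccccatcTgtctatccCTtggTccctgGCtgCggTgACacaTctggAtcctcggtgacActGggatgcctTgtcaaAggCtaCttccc

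The windows are chr12:113288833-113288932 for Ighg2c, chr12:113307834-113307933 for Ighg2b, chr12:113330424-113330523 for Ighg1 and chr12:113361133-113361232 for Ighg3. Ighg2b differed from Ighg2c at 9 bases of the window, Ighg1 at 19 and Ighg3 at 20. Over the whole transcripts the longest run that Ighg2c shared with Ighg2b was 78 bases, and with Ighg3 41 bases. The annotation and the aligner's genome carry the B6 alleles, and the part that alleles of the CC parent play in these counts was not tested. Ighm lies at chr12:113418558-113422730 and Igha at chr12:113254830-113260236 on the same strand, Igkc at chr6:70726435-70726966 on the plus strand and Jchain at chr5:88519809-88527891 on the minus strand.

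The members did not behave as 1 group. Most UMIs of Ighg2c, Ighg2b, Ighg1, Igha, Igkc and Jchain sat in a few cells, while Ighm was spread thinly over macrophages and Ighg3 was nearly absent. Outside those cells and other B-lineage cells, Igkc was found in T/NK cells, in clusters 18 and 25 and in macrophages. Over all cells Ighm gave 16179 UMIs, Igkc 10385, Ighg2b 4659, Ighg2c 3934, Jchain 1148, Ighg1 844, Igha 352 and Ighg3 20. Of the 93126 cells 81931 (88.0%) had no UMI of any member. At the other end 16 cells had 20 or more member UMIs and together held 51.3% of the 37521 member UMIs. Those 16 cells, called immunoglobulin-rich here, held 97.7% of Ighg2b, 91.7% of Ighg1, 91.0% of Ighg2c, 88.9% of Jchain, 81.8% of Igkc and 75% of Igha, but 7 of the 20 Ighg3 UMIs and 3.41% of Ighm. The threshold cuts a tail, since the least of them had 21 UMIs, the fullest cell outside had 18 and 54 cells had 10 to 19. A clear gap lay higher up, between 10 cells of 100 or more UMIs and the next cell, which had 68. Because so few cells decide it, the share of member UMIs in rich cells had a median of 0 over tumors and reached 97.0% in 1 tumor, and its mean with tumors weighted equally was 13.4%.

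The 10 cells of 100 or more member UMIs carried plasma cell markers, which the choice of members did not use, and are called plasma-like. Each had UMIs of at least 3 of 8 plasma cell markers, and their UMIs of Mzb1, a chaperone-like protein of antibody-secreting cells, ran from 3 to 131. Jchain, itself a member and so part of the sum that picked these cells, was found in all 10, at 34 to 254 UMIs. The mature B cell marker Ms4a1 (CD20) did not exceed 2 UMIs in any of them, and Lyz2, a macrophage gene, did not exceed 2 in any of the 16 rich cells. In every one of the 10 a single heavy-chain constant gene made up 77.3 to 100% of the heavy-chain UMIs, and for 9 of the 10 the same cell also had Igkc. Another 6 cells of 21 to 68 member UMIs had no Jchain UMI.

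**Figure D1:**
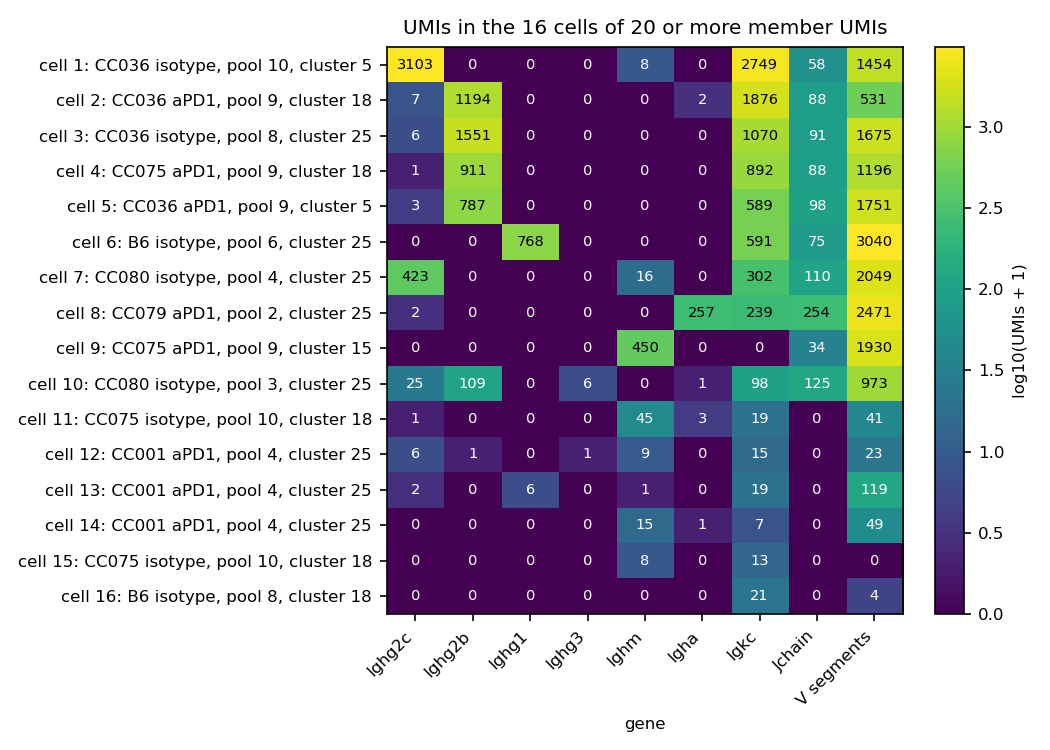
UMIs of the 8 members and of the summed variable segments in the 16 cells of 20 or more member UMIs. Rows are cells with host, treatment, pool and cluster, colour is log10(UMIs + 1), and numbers are UMIs. In the 10 fullest cells 1 heavy-chain gene dominates each row and Jchain runs from 34 to 254.

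The fullest cell, from a CC036 isotype tumor of pool 10, had 3103 Ighg2c and 2749 Igkc UMIs, which is 78.9% of all Ighg2c UMIs of the series. It had been placed in macrophage cluster 5, where Ighg2c and Igkc stand among the genes of largest fold. Its heavy-chain segment was Ighv1-75 in 99.4% of Ighv UMIs, and its main light-chain segment was Igkv4-61. A CC080 isotype tumor of pool 4 held the other Ighg2c cell, with 423 UMIs, Ighv3-8 and Igkv3-1.

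Ighg2b was the constant gene of 5 cells. Those with 1194 and 787 UMIs came from the CC036 aPD1 tumor of pool 9, the one with 1551 from a CC036 isotype tumor of pool 8, the one with 911 from the CC075 aPD1 tumor of pool 9, and the one with 109 from a CC080 isotype tumor of pool 3. All 3 cells of pool 9 had the same main segments, Ighv1-82 with Igkv6-25, although their hashtags placed them in tumors of 2 host strains. The cell of pool 8 also had Ighv1-82, but with Igkv12-46 (768 UMIs) and Igkv12-44 (722 UMIs). Whether the counting divided reads of 1 segment between these names was not tested. How cells of 2 strains in 1 library came to share segments was not tested.

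The other classes were 1 cell each. An Ighg1 cell with 768 UMIs came from a B6 isotype tumor of pool 6, an Igha cell with 257 Igha and 254 Jchain UMIs from a CC079 aPD1 tumor of pool 2, and an Ighm cell with 450 UMIs and Iglv2 in place of Igkc from the CC075 aPD1 tumor of pool 9. Of the 10 cells 7 came from non-responder hosts (4 of them CC036), 2 from responder hosts and 1 from B6, and 5 from each treatment. These are counts of cells, not of replicates. Both responder cells came from the CC075 aPD1 tumor of pool 9, and 2 of the CC036 cells from the CC036 aPD1 tumor of that pool. Hosts are those of the hashtags, also for the cells of pool 9 with shared segments. CC036 tumors gave 9939 of the 93126 cells. CC001, CC002 and CC007 tumors had no cell of 100 or more.

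Counts of 1 IgG gene in a cell of another were low, so the close copies were kept apart in most cells. In the 7 cells of at least 423 UMIs of their IgG gene, the other IgG genes made up 0 to 0.586 UMIs per 100. The cell of 109 Ighg2b UMIs was the exception, with 31 UMIs of other IgG genes, which is 28.4 per 100, including 25 of Ighg2c and 6 of Ighg3. Those 6 are the most Ighg3 UMIs in any cell.

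B cells short of the plasma stage were also rare. A cell with UMIs of at least 2 of 6 B cell markers, among them Cd79a, Cd79b, Ms4a1, Pax5 and Fcmr, was called B-lineage, and 201 cells (0.216%) were, 155 of them in cluster 25, 31 in cluster 18 and 9 in macrophage clusters. Of the 16 rich cells 13 met that rule and 13 had at least 3 plasma cell markers. The plasma cell list alone did not mark plasma cells in these tumors, since 1055 cells that were not rich also met it and 71.4% of Sdc1 and 80.2% of Xbp1 UMIs lay in macrophages. The 188 B-lineage cells that were not rich held 2.60% of the member UMIs, with Igkc at 2888 and Ighm at 2074 UMIs per 1000 cells. They also held 59.7% of Ighd, the constant gene of naive B cells, at 45.1 Ighd UMIs per 100 of Ighm.

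The remaining 92922 cells, neither rich nor B-lineage, had 17295 member UMIs, of which 88.1% were Ighm. Where no cell is named, the levels that follow are for these cells. As a yardstick for RNA found in the wrong cell, the T cell gene Cd3e gave 5.78 UMIs per 1000 macrophages against 2501 per 1000 T/NK cells, and Lyz2 gave 858 per 1000 T/NK cells against 26941 per 1000 macrophages.

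IgG RNA outside B-lineage cells was at low levels in macrophages and T/NK cells. Per 1000 cells Ighg2c was at 3.16 UMIs in macrophages and 5.48 in T/NK cells, Ighg2b at 0.720 and 1.25, Ighg1 at 0.617 and 1.25, and Jchain at 1.09 and 1.63. Over all pools these 4 were lower per macrophage than per T/NK cell, by ratios of 0.494 to 0.666, and the variable segments gave a ratio of 0.631. Ighg3 had 5 UMIs in each. The direction was not that of every pool. In pool 1 Ighg2c was at 6.35 per 1000 macrophages (95% exact Poisson interval 4.57 to 8.58) and 1.99 per 1000 T/NK cells (1 UMI, 0.0503 to 11.1). In pool 4 Jchain was at 9.02 and 5.58, while Ighg2c, Ighg2b and Ighg1 were lower per macrophage. Outside pools 1, 4 and 11 Ighg2b was at 0.516 (26 UMIs) and 0.251 (2 UMIs), while Ighg2c, Ighg1 and Jchain were lower per macrophage. Pool 4 held 1254 of the 10405 T/NK cells and 5654 of the 68049 macrophages, so it weighs more in the T/NK values over all pools. Most macrophages with Ighg2c had a single UMI (107 of 146).

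**Figure D2:**
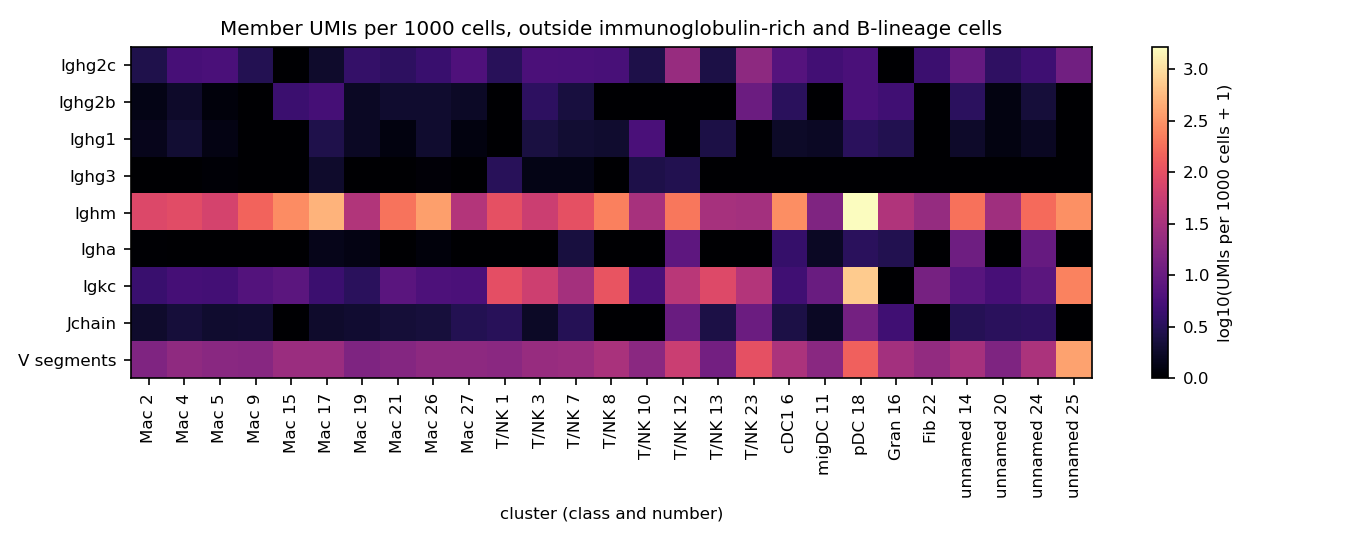
UMIs per 1000 cells of each member and of the summed variable segments by cluster, in cells that were neither immunoglobulin-rich nor B-lineage, as log10(value + 1). The Ighm row is high in cluster 18 and in macrophage clusters 17 and 26, Igkc in clusters 18 and 25 and in T/NK clusters 1, 8 and 13, and the IgG rows are low throughout.

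Ighg2c, Ighg1 and Jchain RNA in these cells was concentrated in a few pools. Of the 348 Ighg2c UMIs outside rich and B-lineage cells 70.7% were in pool 4, which held 8.67% of these cells, 24.4% were in pools 1 and 11 together (16.8% of cells), and 4.89% were in the other 9 pools. Pool 4 held 83.1% of Ighg1, 63.4% of Jchain and 62.1% of variable-segment UMIs. Ighg2b was less concentrated, with 41.7% of its 84 UMIs in pool 4 and 44.0% in the pools other than 1, 4 and 11. Its highest tumor, at 14.5 UMIs per 1000 cells, was the B6 isotype tumor of pool 7, against a highest of 5.55 in pool 4. That tumor had only 345 of these cells, and all of pool 7 had 9 Ighg2b UMIs. Ighm did not share the pattern, with 10.7% of its UMIs in pool 4, close to the pool's share of cells.

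The same strain was high in 1 pool and at 0 in another. Ighg2c in CC001 tumors of pool 4 was at 23.1 (isotype) and 28.6 (aPD1) UMIs per 1000 cells. In pool 1 CC001 was at 5.32 and 4.85, and in pools 2 and 12 all 4 CC001 tumors were at 0. CC080 tumors of pool 4 were at 39.7 (isotype) and 28.6 (aPD1), those of pool 11 at 3.89 and 7.77, and those of pool 3 at 0. In these 6 tumors at 0 the cells counted allow up to 1.00 to 1.81 UMIs per 1000 (3 counts per tumor). CC075 was at 3.72 and 4.31 in pool 11 but at 0 to 0.524 in pools 9 and 10, and CC079 at 7.67 and 5.34 in pool 1 but at 0 to 0.900 in pools 2 and 5. Every tumor of pools 1, 4 and 11 was above every tumor of the other 9 pools, whose highest was 1.68. Over the tumors, pool took up 95.5% of the variance of log2(UMIs per 1000 cells + 1) of Ighg2c in macrophages and strain 17.6%. Each share was adjusted for its number of terms, and the scale does not correct for depth. CPM, used below, are counts scaled to a total of 1000000. For Ighg1 the shares were 84.5% and 5.86% and for Jchain 81.8% and 16.05%. Each pool held 2 strains, so these shares overlap.

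**Figure D3:**
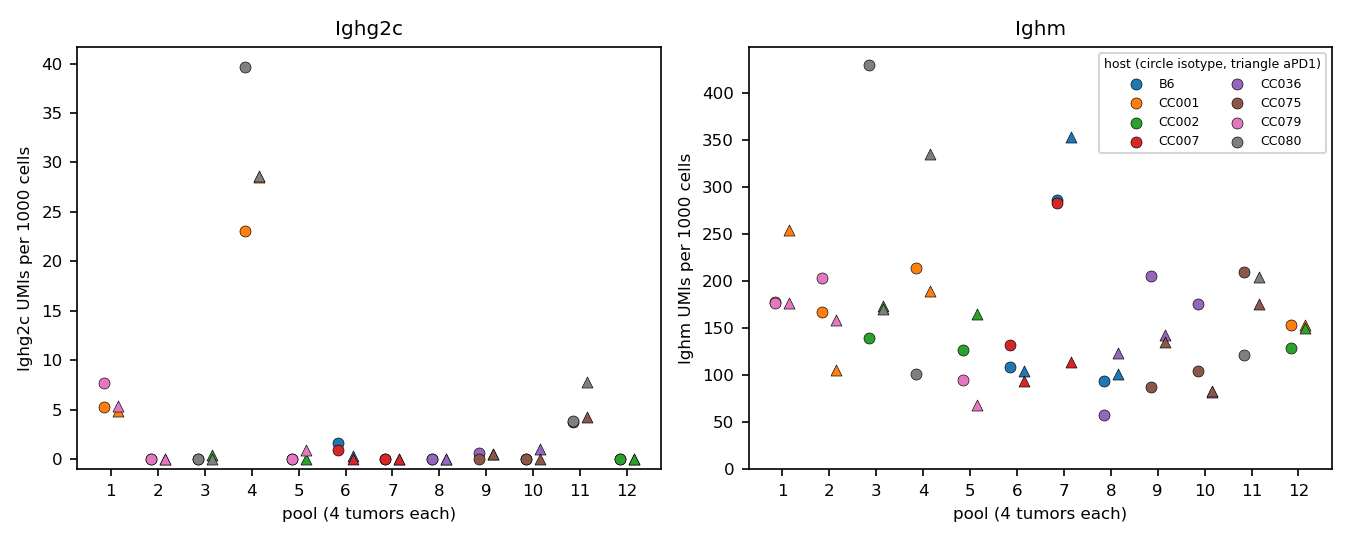
UMIs per 1000 cells of Ighg2c (left) and Ighm (right) in each of the 48 tumors, by pool, in cells that were neither immunoglobulin-rich nor B-lineage. Colour is the host strain and shape the treatment. Ighg2c stands at 23.1 to 39.7 in the 4 tumors of pool 4 and at no more than 7.77 elsewhere, while Ighm has no such step.

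In the pools of most Ighg2c RNA outside B-lineage cells, the leading light-chain segment was a different one in each. In pool 4 a single segment, Igkv12-44, made up 79.4% of 1077 light-chain segment UMIs, in pool 1 Igkv3-4 made up 93.5% of 292, and in pool 11 Igkv10-96 made up 85.3% of 109. The heavy-chain segments were fewer and more mixed, led by Ighv1-26 with 46.4% of 97 UMIs in pool 4, Ighv1-39 with 57.9% of 57 in pool 1 and Ighv8-8 with 44.2% of 43 in pool 11. Each light-chain segment was found in all 4 tumors of its pool, in both strains and both treatments. Igkv12-44 was at 86.2 to 143 UMIs per 1000 cells in the pool 4 tumors, Igkv3-4 at 25.7 to 38.4 in pool 1, and Igkv10-96 at 7.38 to 19.7 in pool 11.

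No kept cell of these pools held the segment in quantity. The fullest had 13 UMIs of Igkv12-44 in pool 4, 4 of Igkv3-4 in pool 1 and 3 of Igkv10-96 in pool 11. In other pools Igkv12-44 reached 722 UMIs in the Ighg2b cell of pool 8, and Igkv10-96 reached 680 in the Ighg2b cell of pool 3. The cell of pool 3 also had Ighv8-8, the leading heavy-chain segment of pool 11, as did a cell of pool 10 with 68 member UMIs. Igkv3-4 reached 10 UMIs in the fullest cell of the series. What links these cells to pools 4 and 11 was not tested. The plasma-like cell of pool 4 had Igkv3-1 (1556 UMIs), which gave 7 UMIs in the other cells of that pool and 1 in those of all other pools. Conversely pool 10, home of the cell with 3103 Ighg2c UMIs, had 2 Ighg2c UMIs among 7524 other cells and none of Igkv4-61. In pool 9 Igkv6-25, the main light-chain segment of its Ighg2b cells, gave 5 UMIs in the other cells, against 1 in all other pools. Igkv12-46, of the Ighg2b cell of pool 8, gave 1 there, against 149 in all other pools. Of these, 146 were in pool 4, where Igkv12-46 was the second light-chain segment after Igkv12-44.

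Within pool 4 Ighg2c was found in macrophages, T/NK cells and dendritic cells. Per Ighg2c UMI there were 4.80 variable-segment UMIs in macrophages and 4.55 in T/NK cells, but cluster 14 had 113 variable-segment UMIs with 37 of Ighg2c. Jchain gave 51 UMIs beside 141 of Ighg2c in macrophages and 7 beside 47 in T/NK cells. Ighg2c was at 24.9 UMIs per 1000 macrophages (95% exact Poisson interval 20.99 to 29.4, median 3066.5 UMIs per cell), 37.5 per 1000 T/NK cells (27.5 to 49.8, median 1699), 29.6 per 1000 type 1 dendritic cells (8.07 to 75.9) and 20.5 per 1000 migratory dendritic cells (4.24 to 60.0). These intervals cover counting error only, and each overlaps that of the macrophages, but relative to all UMIs Ighg2c was at 6.28 CPM in macrophages and 15.3 CPM in T/NK cells. Cluster 14, led by the dendritic cell lectin Cd209a, was higher per cell, at 83.0 per 1000 (58.4 to 114, median 4800 UMIs), but at 16.2 CPM was close to the T/NK cells. Igkc gave 1.24 UMIs per Ighg2c UMI in macrophages and 2.40 in T/NK cells.

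Ighm in macrophages had another pattern altogether. Sparse macrophages held 11636 Ighm UMIs, 71.9% of the gene's total and 94.4% of their member UMIs, and 7684 of 68049 macrophages had at least 1. Per cell Ighm was 1.53 times as high in macrophages as in T/NK cells (171 against 112 per 1000), but relative to all UMIs both were alike, at 38.7 and 39.4 CPM. It was present in all 48 tumors, from 66.0 to 431 UMIs per 1000 cells over all cells of a tumor.

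The Ighm of macrophages came with few variable-segment or Ighd UMIs. Of the 7684 macrophages with Ighm 1.28% also had a variable-segment UMI, against 63.0% of the 146 macrophages with Ighg2c. There were 10.0 variable-segment UMIs per 100 Ighm UMIs in macrophages, 5.07 in cluster 26 and 8.43 in cluster 18, against 303 in B-lineage cells that were not rich. Ighd, which naive B cells make from the same primary transcript as Ighm, was at 0.490 per 100 Ighm UMIs in macrophages. In the 9 pools other than 1, 4 and 11 macrophages had 160.7 Ighm UMIs per 1000 cells and 0.329% of the macrophages with Ighm had a variable-segment UMI. In those pools 0 of the 7 macrophages with Ighg2c had one, so the contrast between the 2 genes rests on pools 1, 4 and 11, where the shares were 3.61% and 66.2%. Cd79a and Cd79b encode the signalling subunits of the B cell receptor, and they differed. Macrophages held 4.57% of Cd79a UMIs but 80.2% of Cd79b UMIs (1722), and 18.8% of those of Ms4a1. Whether the Ighm transcripts start at the variable or the constant region cannot be told from gene counts.

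Levels of Ighm differed more between macrophage clusters than those of the variable segments. By CPM the highest cluster was 8.42 times the lowest for Ighm and 3.81 times for variable segments, and per cell 13.6 and 1.74 times. Per 1000 cells Ighm was at 502 in cluster 17 (led by histone genes), 372 in cluster 26 (Cxcl13, Fcrls, Olfml3) and 189 in cluster 21 (interferon-induced Ifit genes), against 38.2 in cluster 27 (Gpnmb, Hmox1) and 36.9 in cluster 19. Cluster 17 cells were deep, with a median of 6874 UMIs against 4383 in cluster 26, 3763 in cluster 27 and 1225 in cluster 19. At a fixed depth of 1000 UMIs per cell, with shallower cells left out, 7.49% of cluster 26 cells had an Ighm UMI (95% exact binomial interval 7.09 to 7.90), 6.03% of cluster 17, 1.85% of cluster 19 and 0.781% of cluster 27. Without thinning these were 23.2%, 27.03%, 3.10% and 2.94%. Fibroblasts (cluster 22, median 4199.5 UMIs), which should lack the gene, had 0 of 560 cells after thinning, which allows a share of up to 0.536%, and 0.859% without thinning. Cluster 27 was above the fibroblasts without thinning, while after thinning its interval was 0.531 to 1.11%.

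Cluster 26 was above most other macrophage clusters compared with it in most tumors. Cluster 26 was above cluster 27 in 44 of 45 tumors with at least 20 cells of each (median 60.6 against 6.37 CPM), above cluster 19 in 44 of 45, above clusters 2 and 5 in 46 of 47 each, above cluster 21 in 39 of 45 and above cluster 4 in 36 of 44. Clusters 17 and 26 could not be ordered, since cluster 17 had the higher CPM in 11 of 33 tumors but the higher level per cell in 26. These counts are a description, since cluster levels were in view when the members were chosen.

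**Figure D4:**
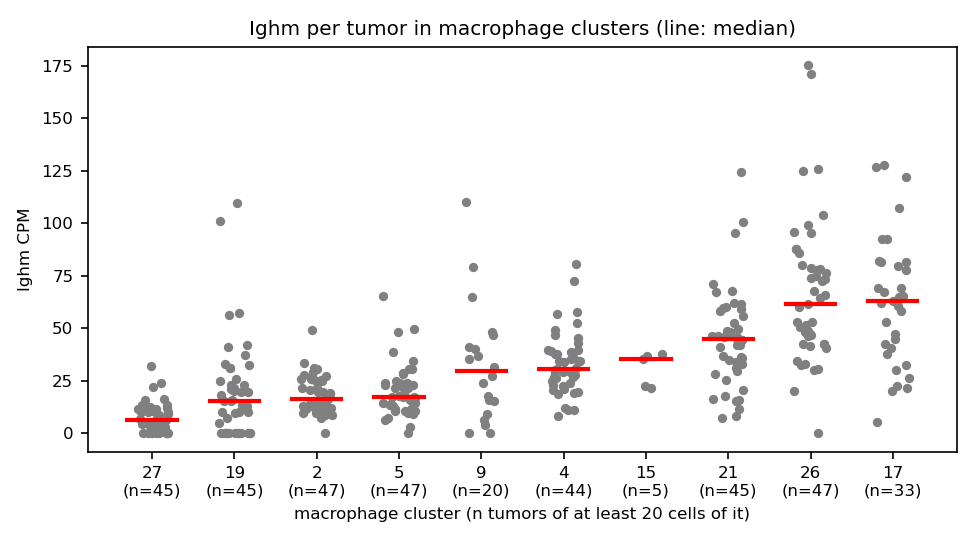
Ighm CPM in each tumor by macrophage cluster, for tumors with at least 20 cells of the cluster, in cells that were neither immunoglobulin-rich nor B-lineage. Grey points are tumors and red lines medians, which rise from 6.37 CPM in cluster 27 to 63.2 in cluster 17.

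Of all clusters, cluster 18, the plasmacytoid dendritic cells, had the most Ighm, at 1643 UMIs per 1000 cells. Below macrophage clusters 17 and 26 came cluster 25 at 290.3 per 1000 cells, type 1 dendritic cells at 288, macrophage cluster 15 at 277, and cluster 8, T/NK cells led by Foxp3, the regulatory T cell factor, at 232, while migratory dendritic cells had 14.4. The rank of cluster 25 depended on pool 4, where 9 of its cells held 13 Ighm UMIs. Outside pools 1, 4 and 11 cluster 25 was at 206 per 1000 cells, type 1 dendritic cells at 271, cluster 8 at 219 and cluster 15 at 176. By CPM type 1 dendritic cells were at 38.7, level with the macrophages as a whole. At 1000 UMIs 36.3% of cluster 18 cells and 10.3% of cluster 8 cells had an Ighm UMI, against 69.5% and 16.1% without thinning. Cluster 8 exceeded cluster 3, T/NK cells led by Cd8a, Pdcd1 and Lag3, in 24 of 24 tumors (median 68.5 against 19.999 CPM), and exceeded T/NK cluster 7 in 19 of 29 (74.4 against 58.1 CPM). Of cluster 18, 31 B-lineage cells had been removed first.

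By strain, Ighm in macrophages followed an order whose neighbours did not differ beyond their spread. Per 1000 macrophages CC080 hosts had 233 ± 177 UMIs (SD, n = 6), CC007 184 ± 99.5 (n = 3), B6 183 ± 146 (n = 6), CC001 179 ± 61.8 (n = 8), CC002 166 ± 36.5 (n = 6), CC079 144 ± 59.2 (n = 6), CC075 134 ± 61.4 (n = 6) and CC036 119 ± 60.8 (n = 6). The CC080 range, 63.6 to 504, overlapped that of CC036, 34.1 to 201. Strain took up none of the variance of macrophage Ighm after adjustment (-5.15%) and pool 28.2%. In T/NK cells the balance turned, with strain at 45.7% and pool at 0.232%. There CC079 tumors had 259 ± 80.6 UMIs per 1000 cells (n = 5, 152 to 359) and CC075 tumors 66.3 ± 50.8 (n = 6, 20 to 134), ranges that do not overlap. Only the 45 tumors with at least 50 T/NK cells entered, which left out a CC079 tumor of pool 1 at 536 UMIs per 1000 cells. The mix of T/NK clusters behind these sums was not held fixed, and its part was not tested.

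Igkc outside B-lineage cells was higher per cell in T/NK cells than in macrophages. Over all pools T/NK cells had 60.2 UMIs per 1000 cells and macrophages 4.31, a ratio of 0.0716. Ighg2c, Ighg2b, Ighg1 and Jchain had ratios of 0.494 to 0.666 over all pools, but these depended on the pool. Outside pools 1, 4 and 11 Ighg2c was at 0.159 per 1000 macrophages and 0.251 per 1000 T/NK cells. There Ighg2b was at 0.516 and 0.251, Ighg1 at 0.0993 and 0.502, and Jchain at 0.119 and 0.754. The higher Igkc of T/NK cells did not extend to cluster 24, where Igkc was at 6.82 per 1000 cells. That cluster has NK cell receptor genes among its leading genes but was not named by the marker rule. In the 9 pools with little IgG RNA, T/NK cells had 422 Igkc UMIs (53.0 per 1000) and macrophages 36 (0.715 per 1000), while cluster 24 had 2 (1.64 per 1000). None of the 249 Igkc-positive T/NK cells of those pools had a variable-segment UMI, which allows a share of up to 1.20%, and none of the 34 Igkc-positive macrophages had one. In pools 1, 4 and 11 the shares were 29.9% of 117 Igkc-positive T/NK cells and 55.7% of 185 Igkc-positive macrophages.

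The T/NK clusters differed in it. Igkc was at 108.8 UMIs per 1000 cells in cluster 8, 96.7 in cluster 1, 84.0 in cluster 13 and 60.5 in cluster 3, but at 4.80 in cluster 10, T/NK cells with Il13, Il4 and Cd4 among their leading genes. Cluster 18 was again highest, at 744 per 1000, and cluster 25, with 22 UMIs in the 93 of its cells that were neither rich nor B-lineage, was next at 237. Of those 22 UMIs 11 were in 9 cells of pool 4, and outside pools 1, 4 and 11 cluster 25 was at 147. At 1000 UMIs per cell 3.73% of cluster 8 cells had an Igkc UMI, against 0.150% of macrophage cluster 26 and 0.179% of fibroblasts, and 5.67%, 0.394% and 0.515% without thinning. By strain, in tumors with at least 50 T/NK cells, Igkc in these cells ran from 119 ± 48.1 UMIs per 1000 cells in CC079 (n = 5) to 44.3 ± 49.5 in CC075 (n = 6). The ranges, 76.9 to 200 and 0 to 138, overlapped.

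Igha, the constant gene of IgA, had few UMIs outside its plasma-like cell. Of 86 UMIs 51 were in 28 cells of cluster 14, drawn from 16 tumors, with up to 7 in a cell, and 14 in cluster 24, which is led by the NK cell receptor gene Ncr1. All macrophages together had 6. Ighg3, the least abundant member, had 10 UMIs in these cells.

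The treatment comparison was taken not to be part of what chose the members, although earlier results of these data were known. It was tested on counts summed per tumor with edgeR's quasi-likelihood test, with strain as a term and Benjamini-Hochberg (BH) adjustment over all genes tested. No member passed an adjusted p of 0.05. Over all cells 5 members entered the fit of 48 tumors and 0 were called, where the background was 0% of 14162 genes (327 genes at an unadjusted p under 0.05, and 0 called by DESeq2). Ighg2c ranged from 0 through a median of 0.115 to 321 CPM in isotype and from 0 through 0.132 to 8.31 CPM in aPD1 tumors, so the groups overlapped and the mean rested on the tumor of the 3103-UMI cell. Its log2 fold change was -2.36 (SE 0.97, adjusted p = 1.00 by edgeR), and -0.99 without that tumor. Ighm ran from 21.1 through 36.8 to 88.2 CPM in isotype and from 15.4 through 35.2 to 96.3 CPM in aPD1 tumors, with a log2 fold change of 0.00 (SE 0.16, edgeR adjusted p = 1.00). The log2 fold changes of Igkc (-0.19), Jchain (0.05) and Ighg2b (0.18) had standard errors of 0.73, 1.05 and 1.10. In bulk sums fewer cells of a type and less RNA per cell cannot be told apart.

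Within macrophage clusters 4 members were tested in 47 tumors and 0 were called, against a background of 0% of 12511 genes (412 at an unadjusted p under 0.05, 0 by DESeq2). Macrophage Ighm outside rich and B-lineage cells ran from 11.0 through 36.4 to 109 CPM in isotype and from 11.6 through 31.8 to 101 CPM in aPD1 tumors. Its log2 fold change was 0.06 (SE 0.22, adjusted p = 1.00 by edgeR, all macrophage cells summed). Ighg2c was at -2.58 (SE 1.14), Igkc at -0.92 (SE 0.79) and Jchain at 0.98 (SE 0.76), each with an edgeR adjusted p of 1.00. The sums include the 3103-UMI cell of cluster 5, and without immunoglobulin-rich cells Ighg2c was at -0.21. The CC007 aPD1 tumor of pool 6 had under 50 macrophages and was left out.

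Whether the effect of aPD1 differed between responder and non-responder hosts was tested as an interaction in the 38 classed tumors. Over all cells 4 members were tested and 0 called, with a background of 0% of 13503 genes (1438 at an unadjusted p under 0.05, 0 by DESeq2). All 4 estimates were positive, that is, higher with aPD1 in responders relative to non-responders. Ighg2c was at 5.15 on the log2 scale (SE 1.95, edgeR adjusted p = 0.345), Igkc at 2.99 (SE 1.41, adjusted p = 0.448 by edgeR), Jchain at 2.63 (SE 2.30, adjusted p = 0.709 by edgeR) and Ighm at 0.79 (SE 0.33, adjusted p = 0.386 by edgeR). The median of all genes was 0.01. The non-responder isotype tumors held the plasma-like cells of 3103 Ighg2c and 1551 Ighg2b UMIs. The responder CC075 aPD1 tumor of pool 9 held those of 911 Ighg2b and 450 Ighm UMIs. With 1 tumor left out at a time, Ighg2c ran from 2.95 (without the CC036 isotype tumor of pool 10) to 6.63. Igkc ran from 1.93 to 4.20, Jchain from 0.78 to 4.88 and Ighm from 0.59 to 0.95. Igkc, Jchain and Ighm were each lowest without the CC075 aPD1 tumor of pool 9. In macrophages 2 members were tested and 0 called, with a background of 0.00842% of 11873 genes (1 gene, 1322 at an unadjusted p under 0.05, 6 by DESeq2). Ighm was at 0.80 there (SE 0.48, edgeR adjusted p = 0.523) and Igkc at 1.89 (SE 1.81, edgeR adjusted p = 0.710).

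Related genes gave no calls either. Of the 6 B cell markers 3 were tested over all cells and 0 were called for treatment (median log2 fold change -0.45). Of the 8 plasma cell markers 6 were tested and 0 called (0.05), and of the 5 other constant genes (Ighd, Ighe, Iglc1, Iglc2, Iglc3) 3 were tested and 0 called (-0.18), where the median of all genes was 0.00. In the interaction 2 B cell markers were tested, with a median of 2.90 and both at an unadjusted p under 0.05, and 0 were called. Of the 98 cells of responder aPD1 tumors called B-lineage by such markers, 80 lay in the CC001 tumor of pool 4. For 5 plasma cell markers the median was 0.42 with 2 under 0.05, and for 2 other constant genes 2.58 with both under 0.05, again with 0 called.

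The B-lineage cells, counted by markers that are not members, were fewer after aPD1 in non-responder hosts, by a difference whose call depended on how the pools entered the test. Their share of a tumor's cells ranged from 0% through a median of 0.116% to 1.09% in 9 non-responder isotype tumors (0.286% ± 0.374, SD) and from 0% through 0% to 0.162% in 9 non-responder aPD1 tumors (0.0355% ± 0.0608). That is 55 B-lineage cells against 6. Of the 55 cells, 26 came from the CC079 isotype tumor of pool 5 and 16 from the CC080 isotype tumor of pool 11. At the fixed depth per cell used above, the shares of these tumors were 0.372% and 0.660%, against 1.09% and 0.687% without thinning. The treatment difference, -0.250 percentage points, had p = 0.0311 by a two-sided exact permutation test, and 0.124 after BH adjustment over 4 comparisons. Without the CC079 isotype tumor of pool 5 it was -0.149. With the pool as a block, since the labels put the 4 tumors of a pool in 1 library, the adjusted p of the exact permutation test was 0.03125. Within pools 1 to 6 the difference was -0.240 and within pools 7 to 12 it was -0.262, with exact permutation p of 0.214 and 0.143.

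In responder hosts the share ranged from 0% through 0.0704% to 0.263% in 10 isotype tumors (0.0756% ± 0.0844, SD) and from 0% through 0.0741% to 3.86% in 10 aPD1 tumors (0.466% ± 1.19). The highest value was the CC001 aPD1 tumor of pool 4, the pool of most Ighg2c RNA outside rich and B-lineage cells. The treatment difference of 0.390 had an adjusted permutation p of 0.363 (100000 permutations), and it was 0.0138 without that tumor. Within pools 1 to 6 it was 0.817 and within pools 7 to 12 it was -0.0367. The direction differed between the 2 sets of pools.

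Between the classes, responder minus non-responder, the isotype tumors differed by -0.210 (exact permutation p = 0.0877, adjusted 0.175) and the aPD1 tumors by 0.430 (exact permutation p = 0.222, adjusted 0.295). With the pool as a block the aPD1 difference was 0.537 with an adjusted exact permutation p of 0.03125. Without the CC001 tumor of pool 4 it was 0.0539 unblocked, and 0.0860 blocked with an adjusted exact permutation p of 0.0625. Within pools 1 to 6 the aPD1 difference was 0.839 and within pools 7 to 12 it was 0.0230, and the isotype difference was -0.218 and -0.203.

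**Figure D5:**
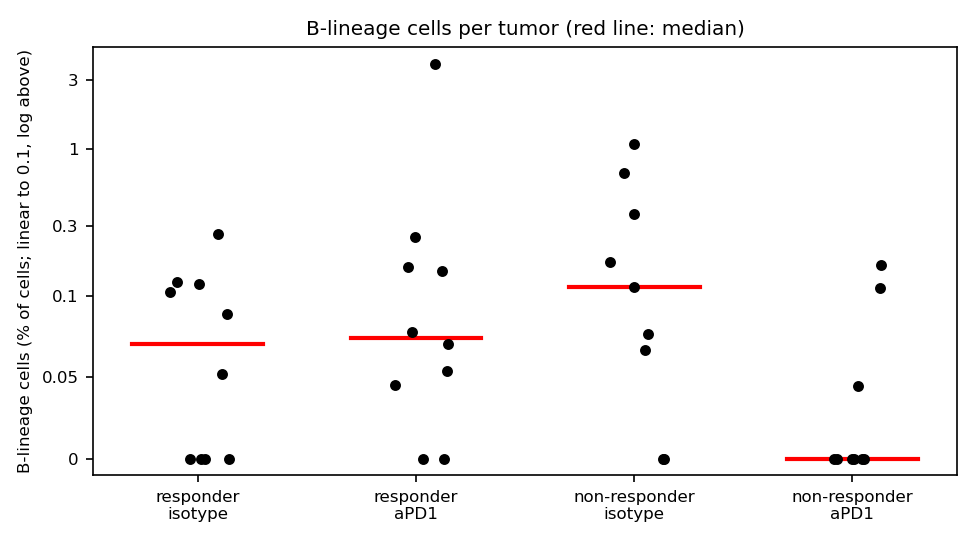
Share of B-lineage cells per tumor by class and treatment, linear up to 0.1% and logarithmic above. Points are tumors and red lines medians. One responder aPD1 tumor stands at 3.86%, and most non-responder aPD1 tumors are at 0.

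By strain the B-lineage share was 0.584% ± 1.32 (SD, n = 8) in CC001, 0.203% ± 0.438 (n = 6) in CC079, 0.181% ± 0.259 (n = 6) in CC080, 0.111% ± 0.127 (n = 6) in B6 and 0.0247% ± 0.0383 (n = 6) in CC002. Every strain's spread was as large as its mean or larger, and the ranges overlapped. CC036 hosts, which by hashtag gave 4 of the 10 plasma-like cells, 2 of them in the same tumor, had a B-lineage share of 0.0981% ± 0.140 (n = 6).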

How the data were processed

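The authors deposited UMI counts, unnormalised, for each gene in each cell of 10x Genomics 5′ libraries, together with their own cluster numbers. They aligned with Cell Ranger to GRCm38, filtered cells on mitochondrial and ribosomal content and clustered with Seurat 5.0.1. Doublet removal is not given in the sources used here beyond the hashtags, and no doublet caller was run. Response class comes from the study, not the labels. The members, marker lists and lists of named genes were chosen with earlier results of these data known. The genes named are all 8 members, the other constant genes and summed variable segments, 6 B cell and 8 plasma cell markers, yardstick genes of T cells and macrophages, and the 5 genes most like the summed members over the 48 tumors. Single segments and cluster-leading genes were named after their values were seen. One B cell marker of the list is not reported here by name. A cluster took the name of its best class when at least 3 markers, and 50% of the list, reached 100 CPM, unless another class had more markers among its 10 genes of largest fold, which left clusters 14 and 25 unnamed. Clusters 20 and 24 reached no class.

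Counts were summed per tumor (at least 50 macrophages for the macrophage sums) and tested with edgeR 4.0.16 (TMM, filterByExpr, quasi-likelihood test), with DESeq2 1.42.0 as an alternative. The scripts were tested on simulated data. Cell shares were compared by permutation tests with p adjusted over 4 comparisons. The isotype and aPD1 tumors of a strain in a pool were fitted as a block in an alternative, because the labels place them in 1 library. Their deviations from the group means correlated above 0.1 in 7 of 24 pairs over all cells and in 9 of 23 in macrophages. Other alternatives were total-count scaling, no count filter, a term for pools 1 to 6 against 7 to 12, left-out cells, pools or tumors, other thresholds, and thinning. Sequences are those of GENCODE transcripts on the same build.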

Additional observations from a re-analysis of the deposited data

Results flagged for a closer look

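Of 40 groups of 9 or 10 tumors tested for a lone extreme tumor 30 had one by Dixon's criterion. The groups share tumors, and in several the median was 0. The count is thus a description, with no chance rate set beside it. Values are CPM unless a percent is given.

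In 4 tumors that held plasma-like cells the values were those of all cells. These were the CC036 aPD1 tumor of pool 9 for Ighg2b (254) and Igkc (318), the CC036 isotype tumor of pool 10 for Ighg2c (321), the CC036 isotype tumor of pool 8 for Ighg2b (597), and the CC075 aPD1 tumor of pool 9 for Ighg2b (124), Igkc (126) and Jchain (16.7).

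Pool 4 supplied most of the rest. Over all cells its CC080 aPD1 tumor stood out for Ighg2c (7.63) and Ighm (85.9), its CC001 aPD1 tumor for Ighg2c (8.31), and its CC001 isotype tumor for Ighg2c (4.27) and Jchain (1.89). In macrophages its CC080 aPD1 tumor had Ighg2c 6.49, Ighm 100.8, Igkc 7.04 and Jchain 1.67, and its CC080 isotype tumor Ighg2c 10.8, Igkc 14.6 and Jchain 3.21. Its CC001 aPD1 tumor had Ighg2c 6.63, Igkc 7.93 and Jchain 2.91, and its CC001 isotype tumor Ighg2c 3.76, Igkc 5.10 and Jchain 1.75.

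The CC080 isotype tumor of pool 3, which shares an animal identifier with the CC080 aPD1 tumor of pool 4, had the highest Ighm of its group over all cells (88.2) and in macrophages (109). The CC001 isotype tumor of pool 1 stood out for Ighg2b (1.07). For B-lineage shares the CC001 aPD1 tumor of pool 4 (3.86%) and the CC075 isotype tumor of pool 10 (0.263%) stood apart.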

How the results depend on the processing

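With tumors weighted equally the share of member UMIs in rich cells was 13.4% in place of 51.3%. Leaving out 1 tumor at a time moved it between 42.7 and 52.7%, the macrophage share of member UMIs outside rich cells between 65.5 and 69.0%, and the ratio of member UMIs per macrophage to those per T/NK cell between 0.920 and 1.02. In each alternative fit, including the pair of a pool and strain as a replicate block, and with each tumor left out, edgeR called 0 members, as did DESeq2, which gave no adjusted p for some of them.

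For B-lineage shares the pool as a replicate block gave 0.537 for responder against non-responder aPD1 tumors and -0.250 for treatment in non-responders, both with an adjusted exact permutation p of 0.03125. Without the CC001 aPD1 tumor of pool 4 the blocked aPD1 difference was 0.0860. Leaving out 1 tumor at a time, the responder against non-responder difference lay between -0.246 and -0.109 (isotype) and between 0.0539 and 0.482 (aPD1). The treatment difference lay between 0.0138 and 0.442 in responders and between -0.286 and -0.149 in non-responders, where 2 of 18 omissions took the adjusted exact permutation p under 0.05 (lowest 0.0341).

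Some log2 treatment changes of single genes, none of them called, turned sign. Over all cells Ighm was at -0.0027 by DESeq2, -0.00617 without TMM, -0.0695 without rich cells, -0.108 without pool 4 and -0.0249 with the pair block. Ighg2b was at -0.91 by DESeq2, Igkc at 0.018 with a term for pools 1 to 6 against 7 to 12, and Jchain at -1.01 with the pair block. In macrophages Ighm was at -0.078 without rich cells and -0.020 without pool 4. Leaving out single tumors gave -1.22 to 2.69 for Ighg2b, -0.091 to 0.069 for Ighm, -0.62 to 0.27 for Igkc and -0.82 to 0.82 for Jchain over all cells. In macrophages it gave -0.095 to 0.19 for Ighm and -1.59 to 0.81 for Igkc, and -0.96 to 4.01 for Igkc in the interaction. The cause of these turns was not tested. Across all alternatives 725 single-gene values kept their direction and 56 did not.

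Refits without 1 tumor kept the genes and the dispersion trend of the whole fit. Precision is limited by 16 rich and 201 B-lineage cells.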

Other observations

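Plasmacytoid dendritic cells (cluster 18) also carried lambda light-chain constant RNA, which is not among the 8 members. In its 426 cells that were neither rich nor B-lineage Iglc3 was at 2120 UMIs per 1000 cells (95% exact Poisson interval 1984 to 2263) and 59.6% of the cells had a UMI, beside Iglc2 at 1012 per 1000. That was 95.7% of the Iglc3 UMIs outside rich and B-lineage cells, and it came from 41 of the 43 tumors with cells of this cluster. Of the 254 cells with Iglc3 34 had a variable-segment UMI. Macrophage cluster 26 had Iglc3 at 0.412 per 1000 cells.

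Ighv1-58 was the leading heavy-chain segment outside rich and B-lineage cells in pools 2, 5, 6, 7 and 12, at 17, 5, 3, 6 and 5 UMIs, all of them in macrophages. It was also the heavy-chain segment of the plasma-like Igha cell of pool 2 (1057 UMIs). Outside rich and B-lineage cells it gave 1.96 UMIs per 1000 cells in pool 2 and 0.439 in the other pools.

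Over the 48 tumors the genes outside the immunoglobulin families whose log2(CPM + 1) was most like that of the summed members were Cetn2 (Spearman rho 0.54), Batf3 (0.53), Rps6kb2 (0.51), Sept6 (0.51) and Xcr1 (0.50), of 9917 genes compared. Batf3 and Xcr1 mark type 1 dendritic cells. These are descriptions over tumors that share libraries and differ in depth.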
